A study of Rattus norvegicus with 16 samples.

Results

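The NR4A family is a small group of nuclear receptors with 3 members, Nr4a1, Nr4a2 and Nr4a3, measured here in primary rat islets on 16 Affymetrix expression arrays. Every probe set annotated to those 3 symbols was taken, which gave 6 of the 31042 non-control probe sets: 1 of Nr4a1, 2 of Nr4a2 and 3 of Nr4a3. A probe set is a group of short oligonucleotides on the array whose brightness is summarised into 1 value for a transcript. Islets hold the hormone-secreting cells of the pancreas, above all the beta cells that make insulin.

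All islets came from 8-week-old male Wistar rats and were cultured in RPMI with 8 mM glucose and 10% serum. In the AdNkx6.1 group (n = 5 arrays) an adenovirus delivered Nkx6.1, a homeodomain transcription factor of beta cells. In the Adβgal group (n = 6) an adenovirus delivered β-galactosidase, a bacterial enzyme used as the control cargo. Both viruses were given at about 2e+09 particles per ml for 18 h, and the islets were collected 48 h after the virus was added. The untreated group (n = 5) received no virus. The titles call the arrays biological replicates, and the sources used here do not say how many rats each array drew on or which promoter drove the delivered genes. An adenovirus reaches only part of an islet, so each value averages cells with and without the delivered gene. In such bulk samples, fewer cells of a type and less RNA per cell cannot be told apart.

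NR4A receptors are immediate early genes: cAMP, calcium and growth signals switch on their transcription within a short time through CREB and MEF2. They are called orphan receptors because the pocket that binds a hormone in other nuclear receptors is largely filled by side chains, so the amount of protein sets much of their activity. They bind the NBRE element as monomers, and Nr4a1 and Nr4a2 can also pair with the retinoid X receptors. The series title ties Nr4a1 and Nr4a3 to beta cell proliferation under Nkx6.1.

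The promoters of 2 of the 3 genes, Nr4a1 and Nr4a2, were in the RefSeq promoter table for the rat build GRCr8, which holds the 250 bases before and the 50 bases after each start site. The first is shown because its gene was higher with AdNkx6.1. The second is shown because its gene did not pass the test against Adβgal with either probe set. Both were searched on both strands for TGACGTCA (the full cAMP response element), its half-site TGACG, AAAGGTCA (the NBRE) and TAATTA (a core bound by homeodomain proteins). The Nr4a1 promoter lay at chr7:134259888-134260187 on the plus strand and is printed with every TGCGTCA in capitals:
Nr4a1: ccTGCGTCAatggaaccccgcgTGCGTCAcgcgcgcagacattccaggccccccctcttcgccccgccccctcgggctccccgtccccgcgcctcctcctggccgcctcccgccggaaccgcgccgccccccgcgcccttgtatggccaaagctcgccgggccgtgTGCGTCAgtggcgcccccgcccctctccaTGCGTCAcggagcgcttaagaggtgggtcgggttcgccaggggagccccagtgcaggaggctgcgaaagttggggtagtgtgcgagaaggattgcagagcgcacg
The Nr4a2 promoter lay at chr3:62104838-62105137 on the minus strand and is printed 5′ to 3′ along the gene, with its single TGACG in capitals:
Nr4a2: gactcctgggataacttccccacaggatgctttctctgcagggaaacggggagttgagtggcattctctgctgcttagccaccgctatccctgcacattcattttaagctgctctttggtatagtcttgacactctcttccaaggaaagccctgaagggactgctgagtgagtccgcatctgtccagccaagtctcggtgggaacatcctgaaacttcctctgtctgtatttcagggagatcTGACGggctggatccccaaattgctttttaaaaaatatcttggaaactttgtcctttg

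The Nr4a1 promoter held 4 copies of TGCGTCA, whose first bases lie at -248, -228, -84 and -55 from the start site. This motif, which resembles the sites bound by AP-1 and CREB proteins, was added to the search after the sequence had been looked at. Each copy contains the reverse strand of TGACG, so the 4 TGACG matches of this promoter are the same places. Of 33469 promoters of this length, 1.9% held TGCGTCA at least once and only that of Nr4a1 held 4 copies or more, while 21.2% held TGACG. Because TGCGTCA was picked from the Nr4a1 sequence, its rarity elsewhere is not a test of this promoter. The Nr4a2 promoter held 1 TGACG. Neither promoter held TGACGTCA, AAAGGTCA or TAATTA in this window, against 1.83%, 1.43% and 5.36% of all promoters. The GC content was 72.3% for Nr4a1 and 48.7% for Nr4a2, with a median of 51.7% over all promoters. A match describes letters only.

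The arrays themselves were bright for the defining beta cell genes, with Ins1 between 22087 and 30445 intensity units on every array and Iapp, the amylin gene, between 16153 and 21313. Median intensities of the arrays lay between 264.8 and 296.2. The Adβgal group stood apart from the others. The SD of the log2 difference between 2 arrays reached 0.818 with Adβgal, against 0.459 with AdNkx6.1 and 0.310 untreated. Adβgal arrays 4, 5 and 6 had a mean acinar marker level (11 of 12 genes measured, centred log2) of 1.49, 0.86 and 1.03, while Adβgal arrays 1, 2 and 3 had 0.02, -0.91 and 0.36. That level ran from -1.19 to 0.20 with AdNkx6.1 and from -0.50 to 0.26 untreated. The leukocyte marker level (13 of 13 genes) was 0.38, 0.46 and 0.68 on Adβgal arrays 4, 5 and 6, above the AdNkx6.1 range of -0.45 to 0.18 and the untreated range of -0.21 to 0.04. The beta cell marker level (7 of 10 genes) differed between the groups without overlap: it was -0.24 to -0.11 with AdNkx6.1, -0.08 to 0.04 with Adβgal and 0.09 to 0.24 untreated. Of these 7 genes, 1 was lower and 0 higher with AdNkx6.1 against Adβgal, beside 7.43% lower and 15.3% higher over all genes. The lower one was Pdx1 (-0.31), a gene chosen after its value was seen, while Ins1 and Ins2 had -0.02 and 0.01. In AdNkx6.1 against untreated, 4 of the 7 were lower and 0 higher, with a median of -0.25, beside 27.2% of all genes called in either direction. Of 4 measured duct markers, 2 were higher and 0 lower with AdNkx6.1 against Adβgal, beside 15.3% higher and 7.43% lower over all genes. The higher ones were Krt7 (0.34) and Muc1 (0.89), also chosen after their values were seen. The other 2 did not pass, and the lowest change was -0.57. The duct marker level was -0.06 to 0.33 with AdNkx6.1, -0.40 to 0.37 with Adβgal and -0.36 to -0.16 untreated. The overlap with Adβgal came from its arrays 4, 5 and 6, at 0.27, 0.34 and 0.37. Adβgal arrays 1, 2 and 3 had -0.30, -0.40 and -0.08, below every AdNkx6.1 array, as were all untreated arrays. The endothelial marker level (6 of 7 genes) was -1.31, 0.24, 0.69, -0.11, 1.19 and 0.50 on Adβgal arrays 1 to 6. It ran from -0.71 to 0.57 with AdNkx6.1 and from -0.50 to -0.10 untreated. Seen after the fact, the Nr4a1 values of the Adβgal arrays followed the same order as this level. The part of these cell types in the NR4A values was not tested. The main member values and the list counts are also given without Adβgal arrays 4, 5 and 6. Adβgal array 1, the lowest in endothelial markers, stays in that setting. Nkx6-1 itself had 11.54, 11.65, 11.19, 11.41 and 11.37 on the AdNkx6.1 arrays, against 11.65 to 12.13 with Adβgal and 12.09 to 12.33 untreated. All 5 AdNkx6.1 arrays lay below all others. Nkx6-1 was thus lower with AdNkx6.1, at -0.46 against Adβgal and -0.80 against untreated islets (limma adjusted p = 0.0041 and 5.4e-05). Whether its probe set lies in the delivered sequence is not given in the sources used here, so these values do not check the labels.

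Nr4a1 (Nur77), the founding member of the family, was higher with AdNkx6.1. On the log2 intensity scale its only probe set, 1386935_at, had 8.56, 8.46, 8.50, 8.41 and 8.55 on the 5 AdNkx6.1 arrays. With Adβgal the lowest value was 6.26, the median 6.99 and the highest 7.52. The untreated arrays had 6.85, 7.15, 6.82, 6.99 and 6.85. Every AdNkx6.1 array lay above every array of both other groups, and the AdNkx6.1 values lay much closer together than those with Adβgal. The SD was 0.06 with AdNkx6.1, against 0.48 with Adβgal and 0.14 untreated. Against Adβgal the log2 change was 1.57 ± 0.18 (SE), a 2.97-fold rise (95% interval of the log2 change 1.20 to 1.95, limma adjusted p = 1.3e-05). Against untreated islets it was also 1.57 ± 0.18 (adjusted p = 1.8e-05 in limma). Adβgal and untreated islets, at 6.93 ± 0.48 and 6.93 ± 0.14 (SD), differed by -0.01 with an interval of -0.38 to 0.37. The order of the levels was therefore AdNkx6.1 above both others, which did not differ beyond their spread.

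Nr4a3 (Nor1) has 3 probe sets, of which 2 were higher with AdNkx6.1 and the third stayed dim. The brightest, 1393389_at, had 8.72, 8.96, 9.61, 9.04 and 9.27 on the AdNkx6.1 arrays. With Adβgal the lowest value was 5.07, the median 6.93 and the highest 8.07, and the untreated arrays had 6.79, 6.85, 6.46, 6.91 and 7.11. All AdNkx6.1 arrays stood above all others. The Adβgal arrays were spread widely: 2 and 4 lay under every untreated array, whereas 1, 5 and 6 lay above every one. The change against Adβgal was 2.47 ± 0.41 on the log2 scale, 5.53-fold (interval 1.59 to 3.35, limma adjusted p = 0.00058). Against untreated islets it was 2.30 ± 0.43, 4.92-fold (limma adjusted p = 0.0012). Adβgal minus untreated was -0.17 with an interval of -1.05 to 0.71, the widest of the 6 intervals in that comparison.

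The second Nr4a3 probe set, 1369067_at, had 5.70, 5.98, 6.72, 6.75 and 6.46 with AdNkx6.1. With Adβgal the lowest, median and highest values were 4.37, 4.64 and 5.38, and untreated arrays had 4.39, 5.24, 3.93, 4.29 and 4.70. The AdNkx6.1 arrays again did not overlap with either other group. Its change was 1.61 ± 0.24 against Adβgal, 3.06-fold (limma adjusted p = 0.00022), and 1.81 ± 0.25 against untreated islets, 3.51-fold (limma adjusted p = 9.7e-05). Adβgal minus untreated was 0.20 (interval -0.32 to 0.72).

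The third, 1369217_at, stayed dim on all arrays. It had 4.31, 3.96, 4.24, 4.28 and 4.25 with AdNkx6.1, and lowest, median and highest values of 4.15, 4.38 and 4.63 with Adβgal. The untreated arrays had 4.12, 4.14, 4.21, 4.11 and 4.39, and the 3 groups overlapped. The change was -0.16 ± 0.10 against Adβgal (limma adjusted p = 0.28) and 0.01 ± 0.10 against untreated (limma adjusted p = 0.95). All its values lay under 32 intensity units, and it and 1369067_at both belong to the 25% of probe sets with the lowest means (under 5.45 on the log2 scale). Which transcripts of Nr4a3 each probe set reads was not tested.

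Nr4a2 (Nurr1), best known for its need in dopamine neurons of the midbrain, did not pass the test against Adβgal with either probe set. The brighter, 1369007_at, had 7.83, 8.00, 8.14, 7.92 and 7.88 with AdNkx6.1. With Adβgal the lowest, median and highest were 6.70, 7.64 and 8.00, and untreated arrays had 7.94, 7.76, 7.63, 7.84 and 7.83. The groups overlapped, and the lowest value was on Adβgal array 5. Its log2 change was 0.42 ± 0.17 against Adβgal (interval 0.06 to 0.78, limma adjusted p = 0.099), 0.15 ± 0.18 for AdNkx6.1 against untreated and -0.26 ± 0.17 for Adβgal against untreated (limma adjusted p = 0.62 and 0.36). Without Adβgal arrays 4, 5 and 6 the first of these was 0.11 and the last 0.04, with the sign turned. Without Adβgal array 2 alone it was 0.51 and passed the threshold (limma adjusted p = 0.039).

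The dimmer Nr4a2 probe set, 1387410_at, had 6.12, 6.28, 6.50, 6.47 and 6.27 with AdNkx6.1. With Adβgal it ranged from 5.74 over a median of 5.97 to 6.40, and untreated arrays had 6.48, 6.55, 6.37, 6.35 and 6.17. The AdNkx6.1 and untreated values covered much the same range, while 5 of the 6 Adβgal arrays lay under every untreated array. The change was 0.33 ± 0.11 for AdNkx6.1 against Adβgal (limma adjusted p = 0.053) and -0.05 ± 0.12 for AdNkx6.1 against untreated (limma adjusted p = 0.81). Adβgal against untreated was -0.39 ± 0.11, which passed the threshold at a limma adjusted p of 0.048. That call was lost in 13 of the 16 repeats that left out 1 array (adjusted p up to 0.12), and without Adβgal arrays 4, 5 and 6, at -0.29 (adjusted p = 0.21). The AdNkx6.1 against Adβgal change was 0.23 without those 3 arrays. It passed without AdNkx6.1 array 1, Adβgal array 3 or Adβgal array 5, at 0.35 to 0.41 (adjusted p 0.010 to 0.0499).

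**Figure D1:**
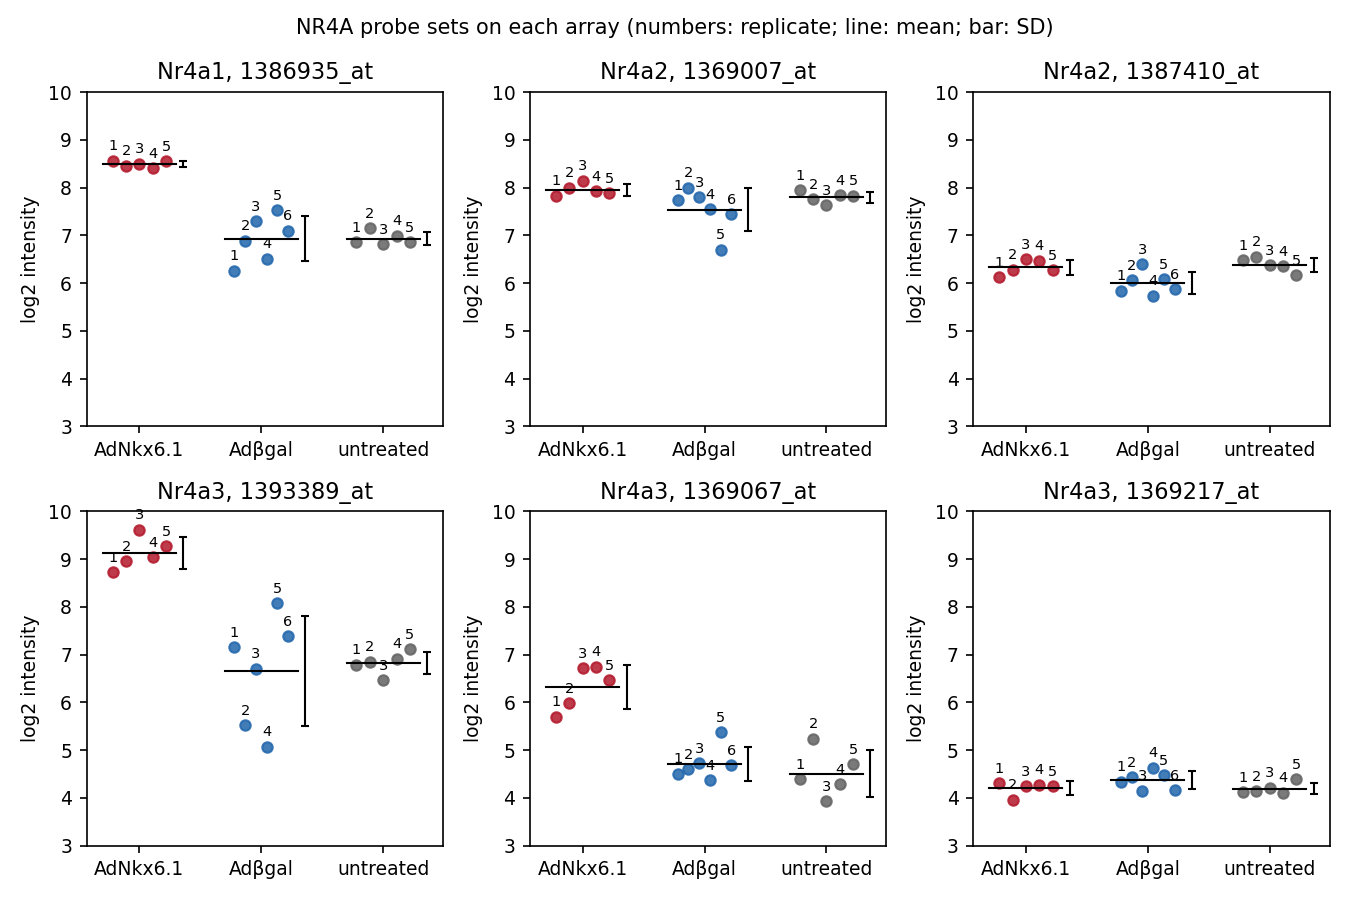
Log2 intensity (vertical axis) of the 6 NR4A probe sets on each of the 16 arrays, by group; numbers are replicates, horizontal lines are group means and bars are the SD. The AdNkx6.1 arrays of Nr4a1 1386935_at and of Nr4a3 1393389_at and 1369067_at lie above all Adβgal and untreated arrays, and the other 3 probe sets overlap between groups.

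Over the family, 3 of 6 probe sets were called against Adβgal, all 3 higher. Over all probe sets, 20.0% were called in either direction and 11.0% higher. Those 3 were the Nr4a1 probe set and Nr4a3 1393389_at and 1369067_at, so they are not 3 separate genes. The same 3 had every AdNkx6.1 array above every Adβgal array, which held for 7.14% of all probe sets. Nr4a3 1393389_at had the 47th highest change of the 31042 and Nr4a1 the 235th. In Adβgal against untreated, 1 of 6 was called (1387410_at, lower), beside 8.65% of all probe sets in either direction and 4.07% lower. In AdNkx6.1 against untreated, 3 of 6 were called, all higher, beside 20.8% in either direction and 10.2% higher, and 3 of 6 had all AdNkx6.1 arrays above all untreated ones, beside 12.0%. Both comparisons of AdNkx6.1 use the same AdNkx6.1 arrays, so their counts are not separate evidence. When arrays were centred on their medians, the median change of all probe sets was -0.10 in Adβgal against untreated and -0.11 in AdNkx6.1 against untreated. The share of calls that were higher was then 31.0% instead of 53.0% and 32.8% instead of 49.2%, and the same 3 NR4A probe sets still passed for AdNkx6.1 in both comparisons.

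The rises of Nr4a1 and of the 2 Nr4a3 probe sets against Adβgal were as large without the 3 Adβgal arrays that were high in acinar markers. Without Adβgal arrays 4, 5 and 6 they were 1.69 for Nr4a1, 2.66 for 1393389_at and 1.71 for 1369067_at (limma adjusted p = 1.6e-05, 4.2e-05 and 0.00081). In Adβgal against untreated the same 3 probe sets had -0.12, -0.36 and 0.10 without those arrays.

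**Figure D2:**
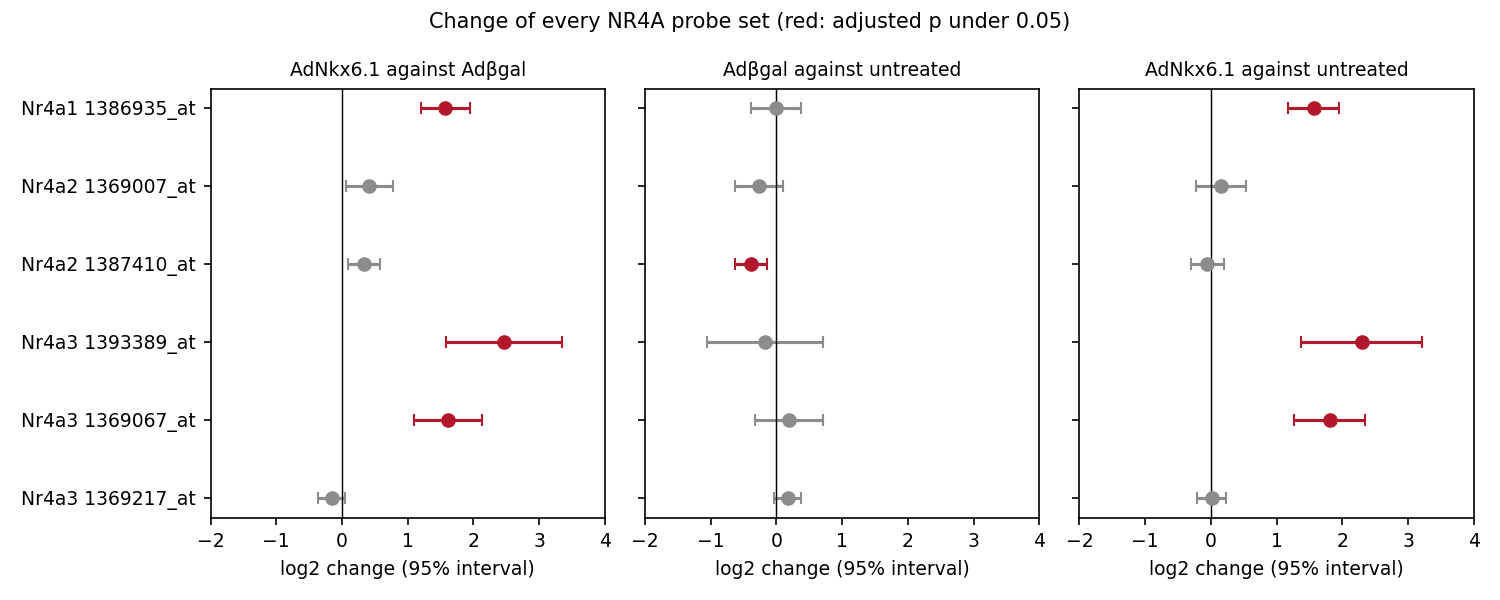
Log2 change (points) with its 95% interval (bars) of each NR4A probe set in the 3 comparisons, first-named group minus second; red marks an adjusted p under 0.05. The 3 red points against Adβgal, at 1.57, 2.47 and 1.61, recur against untreated, and in Adβgal against untreated only Nr4a2 1387410_at is red, at -0.39.

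Whether members differed from each other in their response was tested on differences within each array. Between AdNkx6.1 and Adβgal, 7 pairs were compared with 2-sided exact permutation tests, whose smallest possible p is 0.0022, and p-values were adjusted over the 7 pairs. By the brightest probe sets, the change of Nr4a1 exceeded that of Nr4a2 by 1.15 (exact permutation p = 0.0238, adjusted 0.0417). That of Nr4a3 exceeded that of Nr4a2 by 2.05 (exact permutation p = 0.0173, adjusted 0.0404). Both adjusted values count 2 pairs of Nr4a3 1369217_at, which are not read below and had the smallest p (exact permutation, 0.0043 and 0.0022). Both calls depend on those 2 pairs being counted. Both were lost without any 1 AdNkx6.1 array and without Adβgal array 1, 2, 3, 4 or 6, with adjusted p-values of 0.06 to 0.083. The change of Nr4a3 exceeded that of Nr4a1 by 0.90, which did not pass (exact permutation p = 0.106, adjusted 0.124).

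Within Nr4a3, the change of 1393389_at exceeded that of 1369067_at by 0.86, which did not pass (exact permutation p = 0.091, adjusted 0.124). The pair of Nr4a2 probe sets differed by 0.09 (exact permutation p = 0.84). The other 2 pairs set 1369217_at against the brighter probe sets and are not read here, since it lay under 32 intensity units on every array. When Adβgal arrays 4, 5 and 6 were left out, the change of Nr4a1 exceeded that of Nr4a2 by 1.58 and that of Nr4a3 exceeded it by 2.55 (exact permutation, both adjusted 0.031). Fewer arrays leave fewer permutations, and 0.031 was the smallest adjusted p of any pair in that setting, so it does not grade these differences. The difference was then 0.97 between Nr4a3 and Nr4a1, 0.95 between the brighter Nr4a3 probe sets and -0.12 between those of Nr4a2.

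The other nuclear receptors show where the family stood in its superfamily. Of 45 listed receptors, 39 were measured, each by its probe set of highest mean. Against Adβgal, 8 were higher and 3 lower, and 28 did not pass the test; over all 14217 genes 22.7% were called, 15.3% higher and 7.43% lower. The median change of the list was -0.01, beside 0.02 for all genes. The counts were 6 higher and 4 lower without Adβgal arrays 4, 5 and 6. Among the 42 receptors with the NR4A genes included, the change of Nr4a3 was the 2nd highest, that of Nr4a1 the 3rd and that of Nr4a2 the 12th.

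Nr0b2 (SHP), an atypical receptor without a DNA-binding domain that represses others, had the highest, at 2.65 ± 0.17 (8.11 ± 0.34 with AdNkx6.1 and 5.46 ± 0.30 with Adβgal, SD; limma adjusted p = 2.7e-08). Ppard, a fatty acid sensor, was higher, at 11.67 ± 0.12 with AdNkx6.1 and 10.67 ± 0.23 with Adβgal (SD; limma adjusted p = 4.8e-06). Rarg, a retinoic acid receptor, rose by 0.70 ± 0.09 and Thra, a thyroid hormone receptor, by 0.58 ± 0.09. The 3 lower receptors, chosen after their values were seen, were the retinoic acid receptor Rarb (-0.73), the bile acid receptor Nr1h4 (-0.62) and the oestrogen-related receptor Esrrg (-0.41). As the mean of its probe sets Esrrg had -0.32 and did not pass. The RXR partners of Nr4a1 and Nr4a2, also chosen after their values were seen, did not pass the test. Their changes were 0.10 for Rxra, 0.10 for Rxrb and -0.04 for Rxrg. Rxra was dim, at 4.94 with AdNkx6.1 and 4.84 with Adβgal, among the 25% of probe sets with the lowest means. Its value therefore does not show whether Rxra was unchanged. The signs for Rxra and Rxrg are not settled, since they turned to -0.01 for Rxra with a floor of 32 on intensities and to 0.04 for Rxrg with a further quantile normalization.

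**Figure D3:**
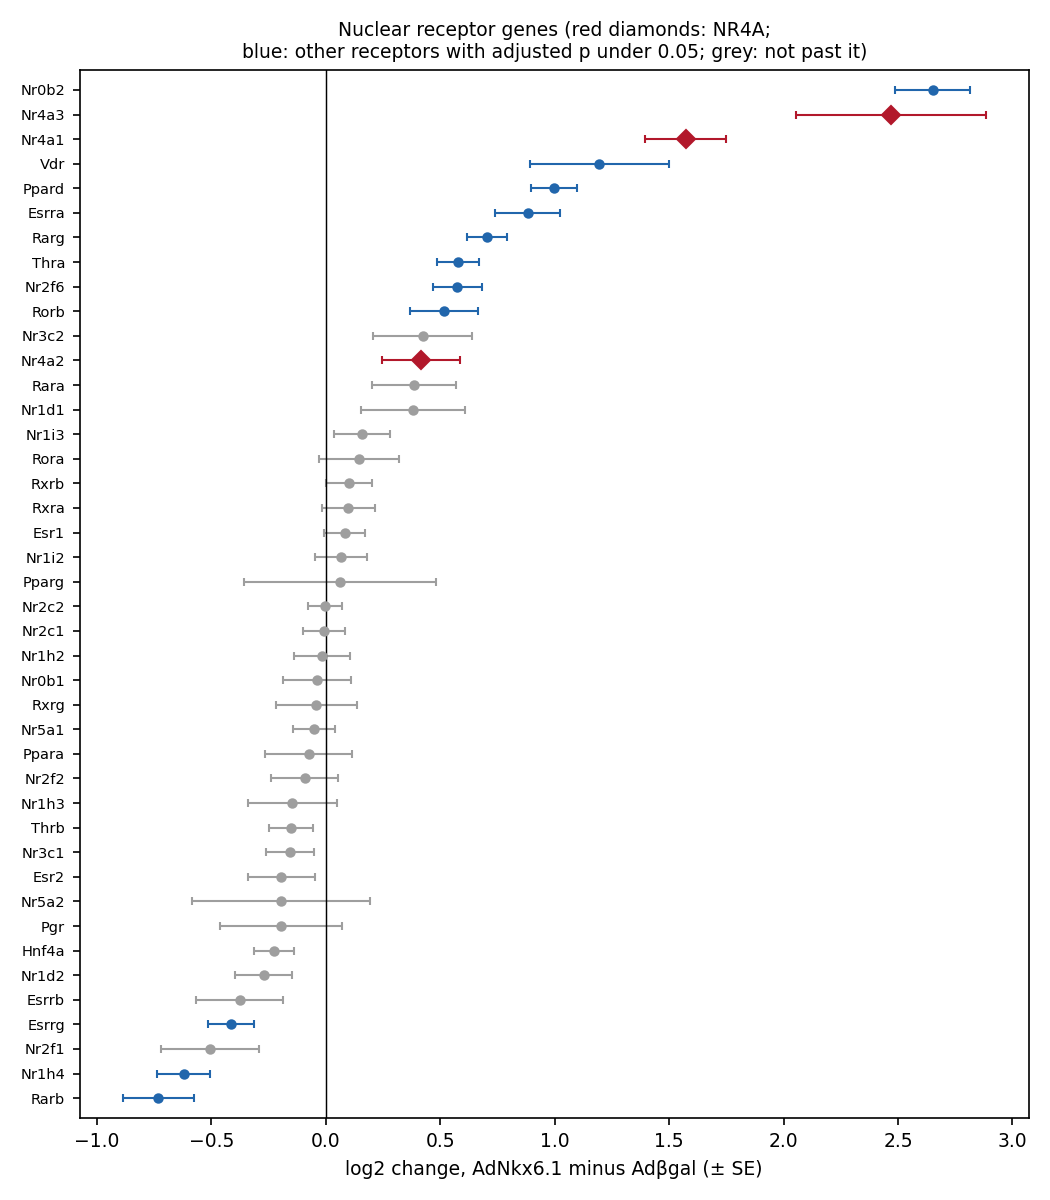
Log2 change, AdNkx6.1 minus Adβgal, with its SE for 42 nuclear receptor genes in order; red diamonds are the NR4A genes by their brightest probe sets, blue points other receptors with an adjusted p under 0.05. Nr0b2 (2.65), Nr4a3 (2.47) and Nr4a1 (1.57) head the list, and Nr4a2 is the 12th at 0.42.

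Genes upstream of the NR4A promoters were counted next. Of 22 measured genes of the cAMP route, from glucagon-like peptide receptors through adenylyl cyclases and protein kinase A to CREB and its coactivators, 0 were higher and 1 was lower against Adβgal, beside 15.3% higher and 7.43% lower over all genes. The list's median change was -0.05. At an unadjusted p under 0.05 in limma, 1 was higher and 4 were lower. The lower one was Prkacb, a catalytic subunit of protein kinase A, at -0.19 ± 0.06 (limma adjusted p = 0.038), and the call was lost in 11 of 16 repeats without 1 array. Without Adβgal arrays 4, 5 and 6, 3 genes of the list were lower and 0 higher. Of 22 measured genes of calcium, MAP kinase and MEF2 signalling, 3 were higher and 1 lower (beside 15.3% higher and 7.43% lower over all genes), with a median of -0.01; without those 3 arrays 5 were higher and 1 lower. Class IIa histone deacetylases, which bind MEF2 and repress its targets, were among them. Hdac7 had 0.86 ± 0.15 and Hdac5 0.68 ± 0.09, both higher, and Hdac4 was lower at -0.37 ± 0.10, a call that was lost with the 2 groups fitted alone (limma adjusted p = 0.051). Mef2b, a MEF2 factor, rose by 0.74 ± 0.12.

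Other genes that are rapidly induced by cAMP and CREB, like the NR4A genes, formed a list of 18 measured members. Of these, 5 were higher and 2 lower against Adβgal, beside 15.3% higher and 7.43% lower over all genes, and the median change was 0.15. Vgf, a secreted neuroendocrine peptide precursor, had the highest change, 3.58 ± 0.17 (12.38 ± 0.12 with AdNkx6.1 and 8.80 ± 0.42 with Adβgal, SD; limma adjusted p = 1.3e-09). The AP-1 genes Fosb and Fos rose by 2.75 ± 0.30 and 1.25 ± 0.15. The other 2 higher genes, chosen after their values were seen, were Sik1, a kinase that restrains CREB coactivators (0.78 ± 0.20), and Dusp1, a MAP kinase phosphatase (0.57 ± 0.16). The 2 lower were Rgs2, a regulator of G protein signalling (-0.55 ± 0.13), and, chosen after its value was seen, Pde4d, a cAMP phosphodiesterase (-0.40 ± 0.11). As means of their probe sets, Dusp1 (0.31) and Pde4d (-0.20) did not pass, and with the 2 groups fitted alone neither did (limma adjusted p = 0.070 and 0.057). With Adβgal arrays 4, 5 and 6 left out, 7 of the list were higher and 2 lower, Rgs2 had -0.31, and Sik1 did not pass, at 0.49 (limma adjusted p = 0.066).

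Of 13 measured coregulators and partners of NR4A proteins, 0 were higher and 3 lower against Adβgal (beside 15.3% higher and 7.43% lower over all genes), with a median of 0.07; at an unadjusted p under 0.05 in limma, 1 was higher and 5 lower. The lower ones were Nrip1, a corepressor of nuclear receptors (-0.39 ± 0.10), Ncor1, another corepressor (-0.23 ± 0.07), and Bcl2, the survival protein that Nr4a1 binds at mitochondria (-0.28 ± 0.09). The Bcl2 call was lost in 10 of 16 repeats without 1 array and the Ncor1 call without AdNkx6.1 array 3, 4 or 5. Without Adβgal arrays 4, 5 and 6, 2 of the list were lower, and Ncor1 did not pass (limma adjusted p = 0.056).

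Genes known as NR4A targets in other tissues, such as dopamine neurons, liver and muscle, had 4 of 19 measured members higher and 0 lower against Adβgal (beside 15.3% higher and 7.43% lower over all genes), with a median of 0.11; at an unadjusted p under 0.05 in limma, 6 were higher and 1 lower. Leaving out Adβgal arrays 4, 5 and 6 gave 5 higher and 1 lower. Fbp1, a gluconeogenic enzyme, rose by 0.83 ± 0.15 and Slc2a4, the glucose transporter of muscle and fat, by 0.77 ± 0.13. Eno3, the muscle enolase, rose by 0.42 ± 0.09. Th, the dopamine-synthesis enzyme that Nr4a2 activates in neurons, had 0.59 ± 0.17 at the dim level of 5.02 with AdNkx6.1 and 4.44 with Adβgal. Its call was lost with a floor of 32 on intensities (0.15, limma adjusted p = 0.16) and with the 2 groups fitted alone (limma adjusted p = 0.056). The Th call was also lost without AdNkx6.1 array 2 or 5 or Adβgal array 6.

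Among 13 cell cycle genes, all measured, 7 were higher and 0 lower against Adβgal, beside 15.3% higher and 7.43% lower over all genes. The median change was 0.46, against 0.02 for all genes. At an unadjusted p under 0.05 in limma the counts were also 7 and 0. Ccne1 (cyclin E) rose by 1.66 ± 0.15, the inhibitor Cdkn1a (p21) by 1.05 ± 0.07, and Fzr1, an activator of the anaphase-promoting complex, by 0.67 ± 0.09. E2f1, a transcription factor of the S phase, had 7.34 ± 0.11 with AdNkx6.1 and 6.37 ± 0.34 with Adβgal (SD), a rise of 0.96 ± 0.13. Chosen after their values were seen, Ube2c, the ubiquitin-conjugating enzyme of that complex, rose by 0.55 ± 0.14, and Cdk5r1, an activator of Cdk5, had -0.28 ± 0.18 (limma adjusted p = 0.31). Without Adβgal array 4, Cdk5r1 had -0.43 and passed as lower (limma adjusted p = 0.046), and without Adβgal arrays 4, 5 and 6 it had -0.45 (limma adjusted p = 0.078). Without Adβgal arrays 4, 5 and 6, 7 of 13 were again higher, but Ube2c did not pass, at 0.40 (limma adjusted p = 0.070). Whether any of these genes moved because NR4A levels differed was not tested.

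**Figure D4:**
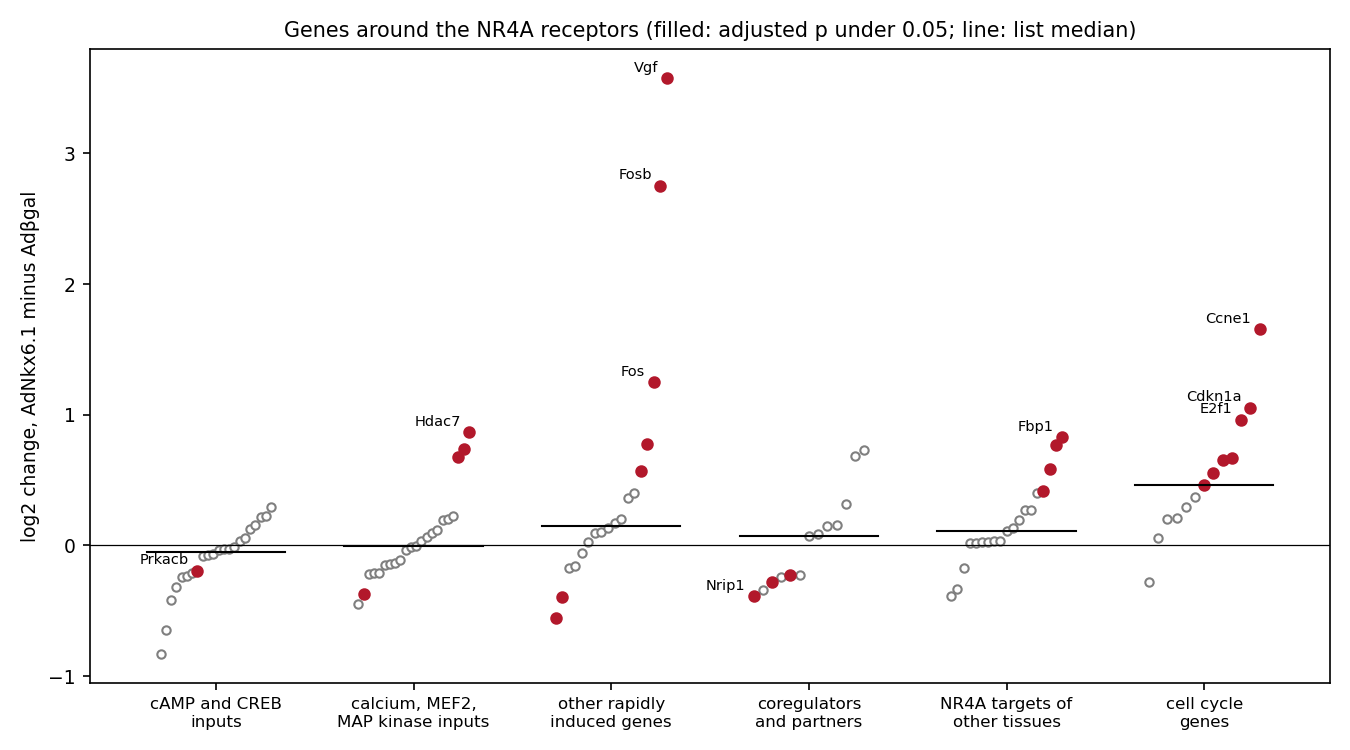
Log2 change, AdNkx6.1 minus Adβgal, of each measured gene of 6 lists around the NR4A receptors; filled points have an adjusted p under 0.05 and lines are list medians. The cell cycle list has the highest median (0.46), and Vgf (3.58) and Fosb (2.75) lie highest among single genes.

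In all 7 lists together, 37 of 146 measured genes (25.3%) were called against Adβgal, near the 22.7% of all genes. In Adβgal against untreated 9 of 146 (6.16%) were called, beside 7.09% of all genes, and in AdNkx6.1 against untreated 49 of 146 (33.6%), beside 27.2%.

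The genes most like each NR4A gene over the 16 arrays were those with the smallest root mean square difference of log2 values, each centred on its own mean, among 14214 genes. For Nr4a1 they were Tmem30b (0.169), a subunit of lipid flippases, Sphk1 (0.189), a sphingosine kinase, Sulf2 (0.234), a heparan sulphate sulphatase, Fstl3 (0.242), an activin-binding protein, and Phlda2 (0.253). For Nr4a3 they were Dhh (0.484), a hedgehog ligand, Pga5 (0.515), a pepsinogen, Myh14 (0.540), a non-muscle myosin, Rab26 (0.542), a GTPase of secretory granules, and Tmem221 (0.542). Their distances were wider, as were the values of Nr4a3 itself.

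For Nr4a2 the nearest were Mark2 (0.132), a polarity kinase, Dnajc12 (0.134), a co-chaperone, Prkaca (0.139), a catalytic subunit of protein kinase A, Rbl1 (0.139), a retinoblastoma-like protein, and Tmem50b (0.142). The arrays share groups, normalization and the spread of the Adβgal arrays. Without Adβgal array 5, 0 of the 5 nearest genes of Nr4a2 stayed among the nearest 5, and without Adβgal arrays 4, 5 and 6, 0 stayed for Nr4a2, 2 for Nr4a1 and 1 for Nr4a3. Only 2 stayed for Nr4a1 without Adβgal array 1, for Nr4a2 without Adβgal array 6 and for Nr4a3 without AdNkx6.1 array 3 or Adβgal array 4, and 3 or more stayed in the other repeats without 1 array. Between the members, by the same measure, Nr4a1 and Nr4a3 differed by 0.714, Nr4a1 and Nr4a2 by 0.761 and Nr4a2 and Nr4a3 by 1.29. No NR4A gene was as near to another as to its own 5 nearest genes. The measure is not scaled, and the root mean square of the centred values was 0.78 for Nr4a1, 0.32 for Nr4a2 and 1.30 for Nr4a3. Such unlike spreads alone keep the members apart, so these distances do not say whether the members share a pattern.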

How the data were processed

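Per the submitters' processing notes the authors used RMA, a method of background correction, between-array normalization and probe summary; its version is not given in the sources used here. The deposited values are linear intensity values from 6.25 to 35765, and log2 of each was taken with no pseudocount. The design had assumed log2 values. No detection calls were used, so folds at dim probe sets are not exact. The treatment protocol in the labels states 5 replicates per condition, while the titles number 6 for Adβgal; all 6 deposited Adβgal arrays were used. Precision is limited by how many arrays there are.

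Of 31099 probe sets 57 were controls. Of the other 31042, 20826 had 1 gene symbol in GEO's platform annotation, 436 several and 9780 none; 20758 matched the RefSeq gene table, which changed 0 symbols. All probe sets were tested in 1 limma fit over the 3 groups (lmFit, contrasts.fit, eBayes; version 3.58.1 under R 4.3.3). P-values were 2-sided and adjusted by Benjamini-Hochberg over all probe sets of a comparison, with a threshold of 0.05. Changes are the first group minus the second. Genes outside the family were represented by their probe set of highest mean (14217 genes). From each list up to 4 genes with the smallest p against Adβgal could be named; the 5 nearest genes of each member were named by the stated distance. Any other named gene is marked in the text as a later choice. The NR4A members and all lists were chosen with earlier results of these data known. In simulated data of 31042 probe sets for AdNkx6.1 against Adβgal, the fit recovered 50% of probe sets changed 1.5-fold, 76% at 2-fold, 100% at 3-fold and 98% at 4-fold. Only 50 probe sets were changed at each fold, and all groups had the same spread. The arrays had 20.0% of probe sets called and a wider spread with Adβgal, so these rates do not carry over to them. Alternatives covered a floor on intensities, scaling, dim probe sets, the probe sets of a gene, the variance model, array weights, the arrays fitted, a replicate block and leaving out each array. Leaving out Adβgal arrays 4, 5 and 6 together was added after seeing the data. Figures used matplotlib 3.10.9 in Python 3.11.15.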

Additional observations from a re-analysis of the deposited data

Results flagged for a closer look

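Among 21 groups of array values (6 NR4A probe sets and Nkx6-1 in 3 groups), 2 held an array that stood apart from the rest of its group by Dixon's test. About 1 in 20 groups would be found so by chance. Nr4a3 1369067_at had 5.38 on Adβgal array 5, with the nearest other Adβgal array at 4.72. Adβgal array 5 also had the highest value of Nr4a1 and of Nr4a3 1393389_at and the lowest of Nr4a2 1369007_at in its group. Nr4a3 1369217_at had 3.96 on AdNkx6.1 array 2, with the nearest other AdNkx6.1 array at 4.24, a difference at intensities under 32 units.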

How the results depend on the processing

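Against Adβgal, the rises of Nr4a1 (1.44 to 1.69), Nr4a3 1393389_at (1.31 to 2.75, the lowest with the mean of the gene's probe sets) and Nr4a3 1369067_at (1.26 to 1.77) passed the threshold under every alternative that gave a value: 27, 27 and 24. Nr4a2 was the exception. Against Adβgal, 1387410_at passed with a further quantile normalization (0.38) and without the dimmest 25% of probe sets (0.33), and Nr4a2 passed as the mean of its probe sets (0.37). Its call in Adβgal against untreated was lost with a floor of 32 (-0.39, adjusted p = 0.052), trend and robust eBayes (-0.39, 0.077), array weights (-0.27), the 2 groups fitted alone (-0.39, 0.099) and, without Adβgal arrays 4, 5 and 6, at -0.29. With a floor of 32 the change of Nr4a3 1393389_at exceeded that of 1369067_at by 1.21 (exact permutation, adjusted p = 0.036), the floor being above most values of 1369067_at outside AdNkx6.1.

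Small differences that never passed turned sign: in Adβgal against untreated, Nr4a1 with array weights (0.042), Nr4a3 as a mean of probe sets (0.066) and Nr4a2 1369007_at without Adβgal arrays 4, 5 and 6 (0.043); in AdNkx6.1 against untreated, 1369217_at with median-centred arrays (-0.070); and the difference between the changes of the Nr4a2 probe sets without those 3 arrays (-0.12). Rxra turned to -0.012 with the floor, and Rxrg to 0.04 with quantile normalization and to 0.10 without AdNkx6.1 replicate 4.

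Leaving out 1 array gave, in Adβgal against untreated, -0.12 to 0.13 for Nr4a1, -0.36 to -0.10 and -0.47 to -0.33 for the Nr4a2 probe sets, -0.45 to 0.15 for Nr4a3 1393389_at and 1421 to 3929 called probe sets. Against Adβgal it gave 0.25 to 0.51 and 0.28 to 0.41 for the Nr4a2 probe sets and 4567 to 7094 calls. In AdNkx6.1 against untreated it gave -0.013 to 0.074 for 1369217_at and 4991 to 7833 calls. The change of Nr4a1 exceeded that of Nr4a2 by 0.98 to 1.44, that of Nr4a3 exceeded that of Nr4a2 by 1.73 to 2.50, and the Nr4a2 probe sets differed by -0.10 to 0.17.

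Of all probe sets, 6196 were called against Adβgal, 2685 in Adβgal against untreated and 6460 in AdNkx6.1 against untreated. With 1 probe set per gene the first 2 counts were 3560 and 997, with the mean of probe sets the 3 were 3545, 998 and 4168, and with the 2 groups alone 4023, 1260 and 10457. Array weights gave 12699 in the last comparison, and leaving out Adβgal arrays 4, 5 and 6 gave 1171 and 10214 in the last 2. Replicate numbers gave no sign of pairing: 5 of 15 same-number pairs had a correlation of deviations over 0.1, and 0 of 15 arrays correlated best with their own number. The deviations include the marker shifts of single Adβgal arrays, so they cannot show that same-number arrays had separate origins. With the replicate block, 1387410_at had -0.36 in Adβgal against untreated (adjusted p = 0.13), with 1081 calls in that comparison. Of 942 values of listed genes under alternatives, 886 kept their direction and side of the threshold; calls of Prkacb, Bcl2, Ncor1, Dusp1, Pde4d, Th, Hdac4, Sik1, Esrrg and Ube2c were lost under at least 1. The causes were not tested.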
